A study of Mus musculus with 8 samples.

Results

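The genes described here encode 10 enzymes that make and remove hydrogen sulfide (H2S), carry sulfur from methionine to cysteine, and run the methionine cycle. They were taken by symbol from the read counts of mouse kidney cortex, where all 10 of 10 symbols were found among 22609 genes and all 10 passed the filter on low counts. The libraries came from 4 aged and 4 young male C57BL6 mice, labelled 30 and 5 months, with no treatment and no genetic change in either group. The study's other descriptions give mean ages that differ slightly from the labels for the aged mice. Each library held RNA of the kidney cortex of 1 mouse, prepared with depletion of ribosomal RNA, and the values are read pairs counted per gene. The cortex is a mixed tissue, so that fewer cells of a type and less RNA per cell cannot be told apart in any value below.

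In the transsulfuration pathway, homocysteine from the methionine cycle is joined to serine and then split to give cysteine. The enzymes of this pathway, together with a sulfurtransferase that acts on 3-mercaptopyruvate, can also release H2S, a gas with signaling roles. Mitochondria oxidize H2S to thiosulfate and sulfate, and cysteine that is not used for protein, glutathione or H2S is oxidized and decarboxylated to hypotaurine, the precursor of taurine. In the kidney many of these enzymes are found in the proximal tubule.

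Read pairs counted on genes numbered 14820804 to 19018543 per aged library and 15152597 to 19821429 per young library. The 10 genes had between 782 and 12649 counts in a library, far above the floor of 3 counts, so that the spread between mice and not the depth limited the comparisons. Aged mouse 1 stood apart from the other aged mice at -71.5 on the first principal component. Its summed level of 8 markers of proximal tubule segments S1 and S2 was 11352 CPM (read pairs scaled by TMM to a common library total), whereas the other aged mice lay between 21528 and 24356 and the young mice between 21222 and 25740 CPM. None of the 8 markers was at 0 in any library. Not all 8 were low in aged mouse 1, as Slc4a4 and Slc5a12 lay within the young range there. Its sums of collecting duct and endothelium markers, 462 and 735 CPM, were the highest of all mice. For some genes in which this mouse was the highest or lowest of all, the value without it is given.

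Aged and young mice were compared with edgeR's quasi-likelihood test on all 13944 genes that passed the filter. The thresholds of the study were kept: a call needs a p below 0.05 after Benjamini-Hochberg adjustment over those genes, together with a change beyond 1.5-fold. Of the 10 genes 1 was called, Csad, which was lower in aged mice. Over all genes tested 2.06% were called in either direction and 0.889% were called lower. In 2 of the 10 genes, Csad and Mat2a, every aged mouse lay below every young mouse, an order shown by 10% of all genes. An unadjusted p below 0.05 was obtained for 3 of the 10, as for 25.5% of all genes, a share near that background. The median log2 fold change of the 10 genes was -0.12, against 0.03 for all genes. The value was below 0 in 9 of the 10 genes and in 45.9% of all genes, and the number among the 10 ranged from 6 with scaling to library size alone, which moved the median of all genes by 0.11, to 10 with the replicate number as a block.

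**Figure D1:**
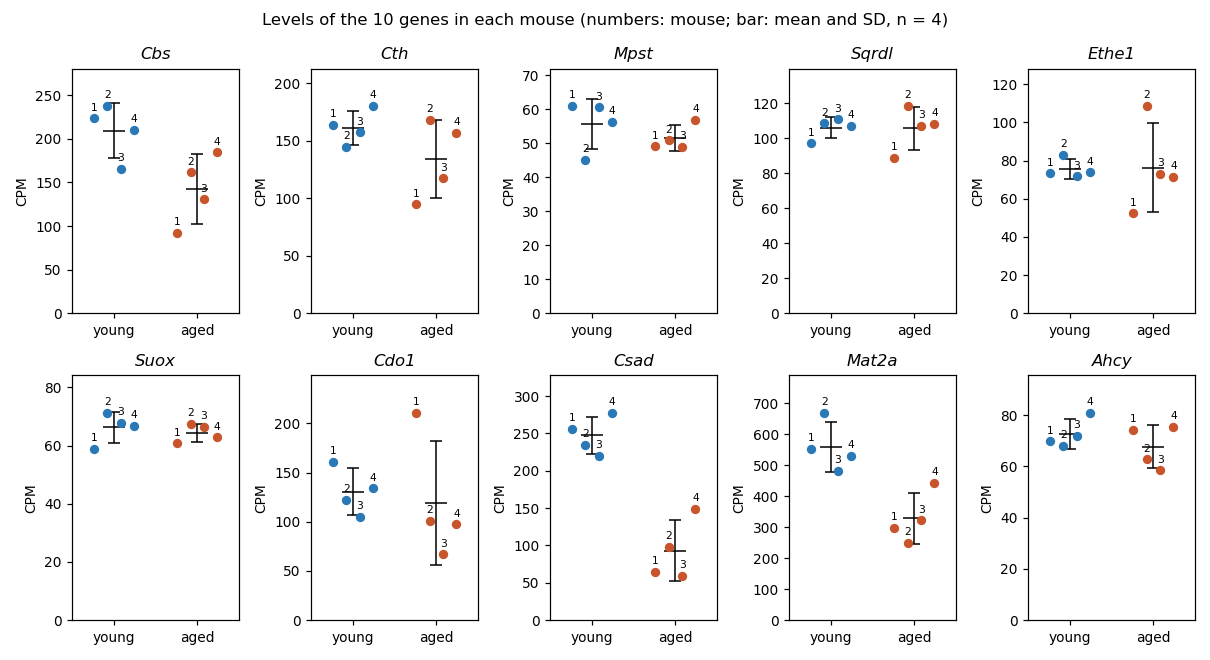
Level of each gene in CPM (vertical axis, from 0) in the 4 young and 4 aged mice; each point is a mouse, numbered 1 to 4 within its group, and the bars show the mean and SD. The groups are apart in Csad and Mat2a, and they overlap in the other 8 genes.

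H2S synthesis was represented by 3 enzymes, and none of them was called. Cbs encodes cystathionine β-synthase, which joins homocysteine to serine and so opens the transsulfuration pathway; in mm9 the gene spans 31749568 to 31774144 of chromosome 17, minus strand. Its level was 92.5, 162, 131 and 185 CPM in aged mice 1 to 4, and 224, 238, 166 and 210.4 CPM in young mice 1 to 4. Young mouse 3 lay below aged mouse 4, so the groups overlapped, although 3 of the 4 young mice were above all aged mice. Aged mice averaged 142 ± 40.0 CPM and young mice 209 ± 31.3 CPM (SD, n = 4 each). For Cbs this gave a log2 fold change of -0.56 (standard error 0.21, 95% interval -1.02 to -0.09), with an unadjusted p of 0.0239 and an adjusted p of 0.140 in the edgeR test. Without aged mouse 1, the lowest of the 8, it was -0.40 (adjusted p = 0.136 from the same edgeR test).

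Cth encodes cystathionine γ-lyase, the enzyme also known as CSE, which splits cystathionine to cysteine; it spans 157557212 to 157588041 of chromosome 3, minus strand. The aged mice had 94.6, 168, 117 and 157 CPM, and the young mice had 164, 145, 157 and 180.4 CPM. Only aged mice 1 and 3 were below the young range, and aged mouse 2 exceeded 3 of the 4 young mice. For Cth the log2 fold change was -0.27 (standard error 0.17, 95% interval -0.66 to 0.13, adjusted p = 0.352 from the edgeR test), and -0.13 without aged mouse 1. The aged mice spread more widely in Cth than the young mice did, with SDs of 34.2 and 14.8 CPM, a difference that was not tested.

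Mpst encodes the sulfurtransferase that releases sulfur from 3-mercaptopyruvate, a product of cysteine, and lies on the plus strand of chromosome 15, from 78237142 to 78244432. Its level was 49.1, 50.9, 48.9 and 56.9 CPM in aged and 61.0, 45.1, 60.5 and 56.3 CPM in young mice. The lowest of all 8 mice was a young one. Its log2 fold change was -0.12 with a 95% interval of -0.36 to 0.13, and thus a fall beyond 1.5-fold lay outside the interval for Mpst, but inside it for Cth and Cbs.

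The 3 enzymes of sulfide oxidation had log2 fold changes between -0.04 and 0.01, and none was called. Sqrdl, now named Sqor, encodes the mitochondrial oxidoreductase that passes electrons from sulfide to ubiquinone; it lies on chromosome 2, from 122590973 to 122635305 on the plus strand. The aged mice had 88.8, 119, 107 and 108 CPM, and the young mice 97.3, 109, 111 and 107 CPM, so that both the lowest and the highest level were in aged mice. The 95% interval of the log2 fold change of Sqrdl was -0.22 to 0.22. Suox encodes sulfite oxidase, the molybdenum enzyme that forms sulfate, and lies on the minus strand of chromosome 10, from 128106943 to 128110974. It lay between 58.9 and 71.2 CPM in all 8 mice, with an interval of -0.22 to 0.14 around a log2 fold change of -0.04.

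Ethe1 encodes the persulfide dioxygenase that acts between these steps, and lies on the plus strand of chromosome 7, from 25372562 to 25393944. Its level was 52.4, 109, 73.0 and 71.4 CPM in aged mice, and 73.4, 83.1, 71.7 and 73.9 CPM in young mice. Aged mouse 1 was well below all young mice, aged mouse 4 was just below them and aged mouse 2 above them, whereas the means of 76.4 ± 23.5 and 75.5 ± 5.17 CPM (SD, n = 4 each) were almost equal. The interval of its log2 fold change was accordingly wider, from -0.42 to 0.44, and without aged mouse 1 the value was 0.16. Of the exon bases of Ethe1, 6.67% are shared with Zfp575 on the other strand, and the read pairs were counted by strand.

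Cysteine breakdown to taurine held the called gene. Csad encodes cysteine sulfinic acid decarboxylase, which forms hypotaurine, and lies on the minus strand of chromosome 15, from 102007429 to 102019474. The aged libraries 1 to 4 held 1321, 1506, 1117 and 2729 counts, and the young libraries 1 to 4 held 4161, 4446, 3235 and 4701. After scaling these were 64.9, 97.96, 59.7 and 149 CPM in the aged mice and 256, 235, 220.0 and 278 CPM in the young mice. Every aged mouse was below every young mouse, and aged mouse 4 was the nearest to the young range. Csad fell 2.67-fold, as its mean was 92.8 ± 40.9 CPM with age and 247 ± 25.2 CPM in the young (SD, n = 4 each). On the log2 scale the change was -1.41 (standard error 0.27, 95% interval -2.02 to -0.81, adjusted p = 0.0390 in the edgeR test), and Csad ranked at 183 by p among all genes.

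The call of Csad depended on which mice entered. It was kept in all 9 other ways of fitting all 8 libraries, with adjusted p between 1.82e-05 with DESeq2 and 0.0412 with the replicate block. With 1 mouse left out it was kept without aged mouse 1 (adjusted p = 0.0333 from the edgeR test) and without aged mouse 4 (adjusted p = 0.00322), and lost when aged mouse 2, aged mouse 3 or a young mouse was left out, where the adjusted p lay between 0.0637 and 0.121. The share called over all genes fell in the same fits, from 2.06% to 0.845% and 0.815% without aged mouse 2 and 3. It fell to between 0.0567% and 0.248% without a young mouse. In the 2 fits that kept the call of Csad, without aged mouse 1 and 4, that share was 3.17% and 5.21%. The lost calls were thus not particular to Csad. The log2 fold change of Csad stayed between -1.74 and -1.25 throughout.

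Cdo1 encodes cysteine dioxygenase, which makes the cysteine sulfinate that the Csad enzyme uses, and its groups overlapped. Its level was 211, 101, 67.0 and 97.6 CPM in aged mice 1 to 4, against 161, 122, 105 and 134 CPM in young mice 1 to 4. Aged mouse 1 had the highest level of all 8 mice, and the other 3 aged mice were below all young mice. With all mice the log2 fold change of Cdo1 was -0.13 (standard error 0.31, 95% interval -0.85 to 0.58, adjusted p = 0.810 from the edgeR test), and without aged mouse 1 it was -0.56 (unadjusted p = 0.0115, adjusted p = 0.0898). In the other fits of all 8 libraries the adjusted p of Cdo1 was between 0.220 and 0.978.

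Of the methionine cycle, Mat2a was lower in each aged mouse than in any young mouse, but its adjusted p missed the threshold. Mat2a encodes the catalytic subunit of the methionine adenosyltransferase found outside the liver, which makes the methyl donor S-adenosylmethionine, and lies on the minus strand of chromosome 6, from 72382793 to 72389552. The aged mice had 299, 249, 322 and 444 CPM, and the young mice had 553, 669, 482 and 530.2 CPM. As with Csad, aged mouse 4 was the highest aged mouse and the nearest to the young range. Aged mice averaged 328 ± 82.7 CPM and young mice 558 ± 79.4 CPM (SD, n = 4 each). The change in Mat2a was -0.77 (log2, standard error 0.18, 95% interval -1.18 to -0.36, adjusted p = 0.0564 from the edgeR test). The gene passed both thresholds with DESeq2 (adjusted p = 0.00175), limma-voom with quality weights (0.0343), scaling to library size alone (0.0499) and without aged mouse 4 (0.0107); in the 13 other alternatives its adjusted p was at most 0.144.

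Ahcy encodes the hydrolase that turns S-adenosylhomocysteine into homocysteine, and lies on the minus strand of chromosome 2, from 154885046 to 154900233. Its counts are uncertain, because 81.3% of the 100-nt windows of its longest coding transcript matched another place in mm9 at 98% identity or more, and the counting left out read pairs without a unique place. For the other 9 genes this share was 0. The level of Ahcy was 74.3, 62.7, 58.5 and 75.4 CPM in aged and 69.8, 68.0, 71.8 and 80.9 CPM in young mice, with a log2 fold change of -0.10 and a 95% interval of -0.34 to 0.13. Aged mice 2 and 3 were below all young mice, whereas aged mice 1 and 4 lay within the young range.

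**Figure D2:**
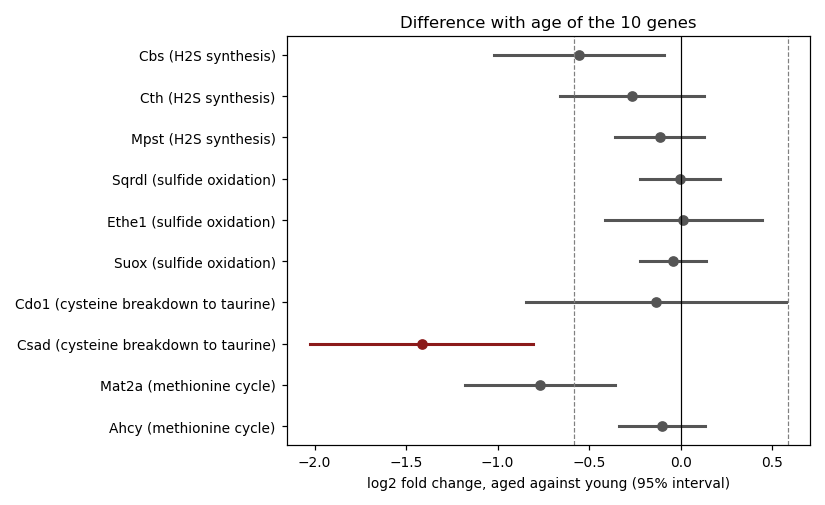
Log2 fold change, aged over young (horizontal axis), with its 95% interval for each of the 10 genes, in the order of their roles; the dashed lines mark a 1.5-fold change in either direction, and red marks the called gene. The interval of Csad, from -2.02 to -0.81, lies beyond the lower line, and that of Mat2a, from -1.18 to -0.36, excludes 0 and crosses the line.

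The windows around the transcription starts of Csad and Mat2a are shown because these were the genes whose groups did not overlap, and that of Cbs because it opens the transsulfuration pathway. Each holds 250 bases before and 50 after an annotated start in RefSeq (GRCm38.p6), and each was matched over its full length to 1 place in mm9. Windows of 8 of the 10 genes were read, 12 in all. Capitals mark the motifs searched on both strands, which were the GC box (GGGCGG, in 35.7% of the 32851 windows of all genes), the CCAAT box (CCAAT, in 37.4%), the TATA box (TATAAA, in 13.6%), the E-box (CACGTG, in 7.15%), the core of the antioxidant response element (TGACNNNGC, in 12.4%) and the half-site of the androgen response element (AGAACA, in 19.0%).
Csad upstream start, chr15:102035434-102035733, minus strand: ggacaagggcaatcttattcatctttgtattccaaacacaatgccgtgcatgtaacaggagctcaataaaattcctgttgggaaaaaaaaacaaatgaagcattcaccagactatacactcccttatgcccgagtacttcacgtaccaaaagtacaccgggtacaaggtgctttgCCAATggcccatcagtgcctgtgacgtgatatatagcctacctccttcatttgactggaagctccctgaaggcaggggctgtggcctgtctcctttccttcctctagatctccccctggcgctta
Csad downstream start, chr15:102019425-102019724, minus strand: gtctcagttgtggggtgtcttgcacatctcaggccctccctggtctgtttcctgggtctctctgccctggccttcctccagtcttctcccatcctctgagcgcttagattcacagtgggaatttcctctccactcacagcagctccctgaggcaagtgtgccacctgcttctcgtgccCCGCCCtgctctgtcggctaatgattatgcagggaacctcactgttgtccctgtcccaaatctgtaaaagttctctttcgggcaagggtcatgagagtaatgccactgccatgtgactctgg
Mat2a, chr6:72389501-72389800, minus strand: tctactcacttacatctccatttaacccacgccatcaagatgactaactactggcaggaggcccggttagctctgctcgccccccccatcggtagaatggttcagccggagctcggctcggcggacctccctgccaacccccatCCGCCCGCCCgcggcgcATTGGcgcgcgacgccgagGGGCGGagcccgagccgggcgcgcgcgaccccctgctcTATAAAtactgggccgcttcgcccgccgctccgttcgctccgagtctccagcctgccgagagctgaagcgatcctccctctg
Cbs, chr17:31774101-31774400, minus strand: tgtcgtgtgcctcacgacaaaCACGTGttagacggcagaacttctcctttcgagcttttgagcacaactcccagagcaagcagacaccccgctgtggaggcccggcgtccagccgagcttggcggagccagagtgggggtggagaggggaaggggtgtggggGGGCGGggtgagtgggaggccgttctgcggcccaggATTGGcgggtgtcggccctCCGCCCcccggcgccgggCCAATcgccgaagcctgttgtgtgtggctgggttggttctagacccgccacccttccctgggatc

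The downstream window of Csad covers the start of the mm9 gene model, and the upstream window lies outside that model. The upstream window held a CCAAT box at -75 from its start, and the downstream window a GC box at -72. The Mat2a window held a TATA box at -32, a CCAAT box at -89 and GC boxes at -70, -102 and -106, of which the last 2 overlap. The Cbs window held an E-box at -229, CCAAT boxes at -15 and -52 and GC boxes at -33 and -88. The 4 windows shared no single one of these motifs, and neither the core of the antioxidant response element nor the androgen half-site was found in them with these letters. The content of G and C was 47.3% and 55.3% in the windows of Csad, and 67.0% and 66.7% in those of Mat2a and Cbs.

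Levels of different genes were compared per kilobase of annotated exon, as CPM per kb. In young mice Mat2a had the highest level of the 10 genes (165 ± 23.4 CPM per kb, SD, n = 4), above the next gene in every mouse. Csad was next with 109 ± 11.1 CPM per kb, and its range overlapped that of Cdo1 below it. Cdo1, Cth, Cbs and Ethe1 followed with overlapping ranges, from 85.4 ± 15.4 CPM per kb for Cdo1 to 50.9 ± 3.48 for Ethe1, which was above Mpst in every mouse. Mpst, Sqrdl, Suox and Ahcy were lowest, between 36.8 ± 4.89 and 25.9 ± 2.05 CPM per kb, each overlapping its neighbor. In aged mice Mat2a was again highest on average (96.9 ± 24.4 CPM per kb), Csad stood at place 6 with 41.0 ± 18.1 CPM per kb, and the ranges of all neighbors in the order overlapped. The level of Ahcy per kb counts only the read pairs that could be placed.

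Marker genes and a list of genes that androgens raise in mouse kidney moved with some of these levels. The list of 6 androgen-responsive genes, which holds Kap, Odc1 and Cyp7b1, summed to 3008, 7321, 6913 and 19809 CPM in aged mice 1 to 4 and to between 23664 and 30834 CPM in the young mice. Kap made up most of this sum in every mouse except aged mouse 1. In 2 of the 6 genes, Kap and Slco1a1, every aged mouse was below every young mouse, and in the others the groups overlapped. Aged mouse 4 was thus nearest to the young mice in this list, in Csad and in Mat2a. This nearness was not confined to these genes. On the first principal component, aged mouse 4 stood at 2.26 and was again nearest to the young mice, at 21.6 to 26.2. The other aged mice lay between -71.5 and -11.6. All 6 genes of the list had an unadjusted p below 0.05 and none was called, but 6 were called without aged mouse 4. DESeq2 called 2, Cyp7b1 and Odc1, and limma-voom called 2 others, Kap and Slco1a1. In the main test Cyp7b1 had a log2 fold change of -2.92 (adjusted p = 0.0693 from the edgeR test) and Odc1 one of -1.81 (adjusted p = 0.0898). Kap, which was picked after its values were seen and is part of the sum above, had 929, 4838, 4020 and 14296.5 CPM in aged mice and between 18460 and 24978 CPM in young mice. The 4 markers of proximal tubule segment S3 summed to 661, 930, 721 and 1737 CPM in aged and between 1660 and 2118 CPM in young mice. Of these 4 markers 0 were called, but all 4 had a log2 fold change below 0 with an unadjusted p below 0.05, and their median was -0.79. In Slc22a7 (-4.02, adjusted p = 0.0615 from the edgeR test) and Slc5a1 (-0.62, adjusted p = 0.0942) every aged mouse was below every young mouse, and 3 of the 4 were called without aged mouse 4. Of the 8 markers of segments S1 and S2, whose sums overlapped, 0 were called. Their median was -0.14, with 5 below 0 and 3 above 0. In 1, Slc22a6, every aged mouse (372 to 1186 CPM) was below every young mouse (1241 to 1484 CPM). Slc5a12 went the other way, at 0.75 with overlap of the groups. It was called without aged mouse 1, at 0.96 (adjusted p = 0.0258 from the edgeR test). What part these lists have in the levels of Csad, Mat2a and Cbs was not tested.

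The markers of other cells overlapped between the groups in their sums. Those of the thick ascending limb (5 genes) summed to 3104 to 5281 CPM in aged and 4657 to 7118 CPM in young mice, and those of the collecting duct (6 genes) to 293 to 462 and 313 to 371 CPM. The markers of podocytes (5 genes) ranged from 315 to 611 and from 434 to 530 CPM, and those of endothelium (5 genes) from 466 to 735 and from 537 to 577 CPM. The markers of immune cells (6 genes) ranged from 214 to 354 and from 203 to 289 CPM, with 1 of 6 called, Csf1r, which was lower in aged mice (log2 fold change -1.004). The other 5 had log2 fold changes between 0.29 and 0.79, and the median of the 6 was 0.48. The immune sum was 328 and 354 CPM in aged mice 2 and 4, whereas aged mice 1 and 3 lay within the young range. Of these genes 1 had at most 16 counts in a library. The markers of the distal convoluted tubule (4 genes) and stroma (3 genes) had 0 called and overlapping sums, but single genes differed in opposite directions. Every aged mouse was below every young mouse in Calb1 (161 to 372 against 439 to 573 CPM) and Col1a1 (6.53 to 22.2 against 30.4 to 42.7 CPM). In Slc12a3 every aged mouse was above (1164 to 1328 against 636 to 1156 CPM). Dcn had a log2 fold change of 0.62 with overlap, or 0.13 without aged mouse 1, the highest of all mice in this gene. Without aged mouse 1, Col1a1 was called at -0.93 (adjusted p = 0.0184 from the edgeR test). No marker was at 0 in any library.

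The genes whose pattern was most like that of Csad were Slc16a9, Reep5 and Arhgap27, with Pearson correlations of log2 CPM of 0.997, 0.995 and 0.994 over the 8 mice, the highest among 13943 genes. The 8 points share the age difference, so this likeness is a description. Slc16a9 had a mean of 160 ± 53.2 CPM in aged and 308 ± 17.2 CPM in young mice (SD, n = 4 each), Reep5 one of 68.8 ± 17.9 and 121 ± 7.22 CPM, and Arhgap27 one of 38.6 ± 6.32 and 59.1 ± 4.65 CPM.

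The remaining genes of these pathways were taken from 8 lists with 62 genes, of which 59 could be tested. Of these 2 were called, 3.39% as against 2.06% of all genes, and their median log2 fold change was -0.13. Gclm, the regulatory subunit of the enzyme that starts glutathione synthesis from cysteine, fell, with 107, 138, 124 and 201 CPM in aged and 309, 255, 261 and 309 CPM in young mice. The change in Gclm was -0.99 ± 0.19 (log2, standard error), at an adjusted p of 0.0372 in the edgeR test. Tstd1, which encodes a small protein with a thiosulfate sulfurtransferase domain, rose, with 21.2, 25.04, 27.5 and 21.2 CPM in aged and 12.0, 16.1, 15.1 and 13.4 CPM in young mice. The change in Tstd1 was 0.74 ± 0.13 (log2, standard error), at an adjusted p of 0.0323 in the edgeR test. In both genes the groups did not overlap, and both calls were lost when aged mouse 2, aged mouse 3 or a young mouse was left out, with adjusted p up to 0.120. The share called over all genes fell in the same fits, as given for Csad.

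Among genes that use cysteine for glutathione or take up cystine, 1 of 7 tested was called, and the median log2 fold change was -0.80. Gclc, Gss and Ggt1, which were picked after their values were seen, encode the catalytic partner of Gclm, glutathione synthetase and γ-glutamyltransferase. Their log2 fold changes were -1.13, -0.80 and -0.91 (adjusted p = 0.0564, 0.0564 and 0.0748 from the edgeR test), and each passed both thresholds with DESeq2. Aged mouse 1 was the lowest of all in Gss and Ggt1. Without it Gss stood at -0.65 (adjusted p = 0.0339 from the edgeR test) and Ggt1 at -0.72 (0.0386), and both were called. Gclc was not called without it, at -1.18 (adjusted p = 0.0521 from the edgeR test). In Gss, every aged mouse (97.7 to 191 CPM) was below every young mouse (225 to 271 CPM). The same held for Ggt1, with 420 to 1091 CPM in aged and 1305 to 1491 CPM in young mice, whereas the groups overlapped in Gclc. Slc7a11, a cystine carrier, had at most 18 counts in a library and was not tested.

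Of the other enzymes of sulfide and cysteine, Tstd1 was the 1 called gene of 10, and the median log2 fold change was -0.14. Its relatives Tst, Tstd2 and Tstd3 (2610029I01Rik in the files) were picked after their values were seen. Tst, the mitochondrial rhodanese that forms thiocyanate from thiosulfate, had a log2 fold change of -0.15 (95% interval -0.40 to 0.10). Tstd2 stood at -0.96 (adjusted p = 0.0870 from the edgeR test) and Tstd3 at -0.73 (adjusted p = 0.0508), each with every aged mouse below every young mouse, and DESeq2 called both. Aged mouse 1 was the lowest of all in both. Without it Tstd3 was called, at -0.61 (adjusted p = 0.0339 from the edgeR test), and Tstd2 was not, at -0.84 (0.110). In the list for the molybdenum cofactor, which sulfite oxidase needs, 0 of 4 genes were called. Mocs3 had a log2 fold change of -0.25 (adjusted p = 0.161 from the edgeR test), with every aged mouse below every young mouse, and Mocs1 had one of 0.31 (adjusted p = 0.276), or 0.09 without aged mouse 1.

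In the taurine list 0 of 3 tested genes were called, and Gadl1 had 0 counts in all libraries. Slc6a6, the taurine transporter, had 1104, 1311, 627 and 918 CPM in aged and 584 to 792 CPM in young mice, with a log2 fold change of 0.53 (adjusted p = 0.171 from the edgeR test). Its direction was thus opposite to that of Csad, and aged mouse 3 lay within the young range. Fmo1, which can oxidize hypotaurine to taurine, had a log2 fold change of -0.18 (adjusted p = 0.317).

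In the list of 18 other genes of the methionine cycle and methyl transfer, 0 of 17 tested were called, and the median log2 fold change was -0.07. Mat1a, the liver form of Mat2a, had at most 36 counts in a library and was not tested. Bhmt, which regenerates methionine from homocysteine with betaine, had 89.1, 20.6, 13.1 and 4.96 CPM in aged and 3.64 to 6.73 CPM in young mice. Aged mouse 4 lay within the young range and aged mouse 1 stood far above all others, with a log2 fold change of 2.71 (adjusted p = 0.0881 from the edgeR test). Without aged mouse 1 the value for Bhmt was 1.39 (adjusted p = 0.0820). Gnmt, which consumes S-adenosylmethionine to methylate glycine, was higher in each aged mouse than in any young mouse, with a log2 fold change of 0.48 (adjusted p = 0.0811).

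For sulfate, 0 of 6 genes were called. Papss1, which makes the activated form of sulfate, had a log2 fold change of -0.51 (adjusted p = 0.0625 from the edgeR test) with no overlap of the groups, and Slc26a1, a sulfate exchanger, had one of -0.64 (adjusted p = 0.266) with overlap, or -0.39 without aged mouse 1. Of 6 transcription factors and partners, 0 were called. Nfe2l2, the factor that binds the antioxidant response element, had a log2 fold change of 0.39 (adjusted p = 0.0693), with 119 to 161 CPM in aged and 100.4 to 110.5 CPM in young mice, and Sp1, a factor that binds GC boxes, had one of 0.14 (adjusted p = 0.310).

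**Figure D3:**
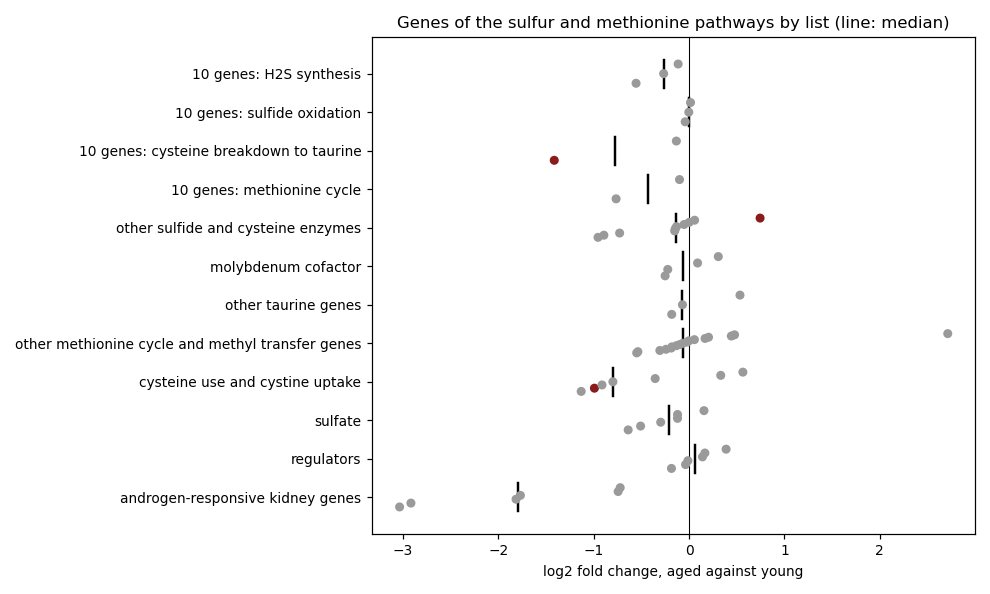
Log2 fold change, aged over young (horizontal axis), for each tested gene of the 4 groups of enzymes and of the 8 other lists (vertical axis); the vertical lines mark the medians and red marks called genes. The called genes are Csad, Gclm and Tstd1, and the median is -1.79 in the androgen-responsive list and -0.80 in the list of cysteine use.

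**Figure D4:**
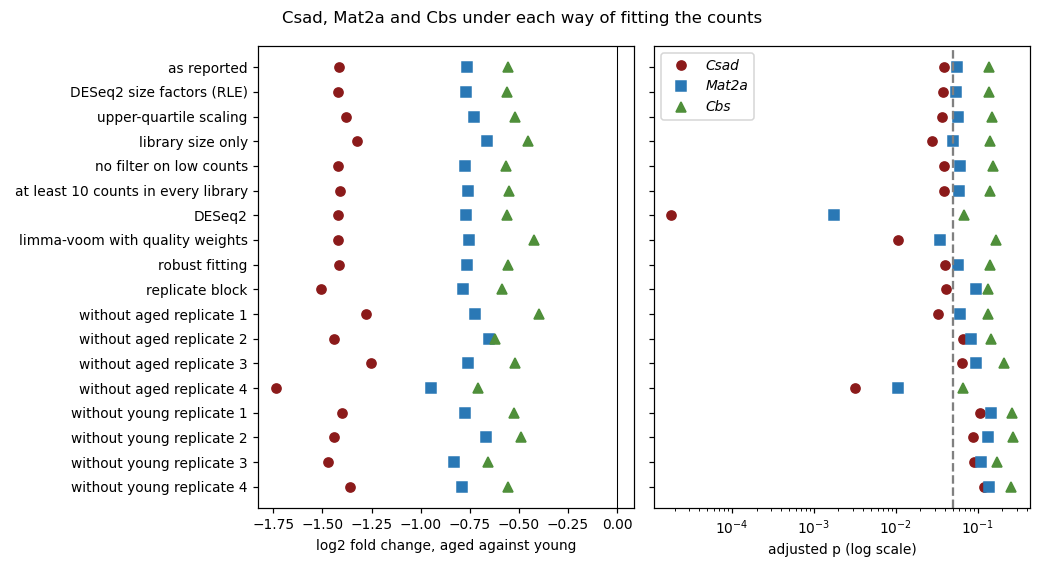
Log2 fold change (left) and adjusted p on a log scale (right) of Csad, Mat2a and Cbs with each way of fitting the counts (vertical axis); the dashed line marks an adjusted p of 0.05. Csad keeps a log2 fold change between -1.74 and -1.25, and its adjusted p crosses the line in 6 of the 8 fits that leave out a mouse.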

How the data were processed

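RNA of the kidney cortex of 4 aged and 4 young mice was sequenced as stranded paired ends after depletion of ribosomal RNA. Alignment was to mm9 (TopHat2), and HTSeq-count then assigned read pairs to RefSeq genes in a strand-aware way. What the authors deposited are these raw counts, neither normalized nor pooled. The submitters' processing notes also name CASAVA 1.8.2 and SAMtools; versions of the other tools are not given in the sources used here. Counts were read from each library's own table, not from the joint one. Lines that name no gene were left out: pairs on no gene made up 20.0% to 29.9% of a library's lines, pairs aligned to several places 34.3% to 39.1%, and ambiguous pairs at most 0.346%.

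Counts were analyzed with edgeR 4.0.16 in R 4.3.3 (TMM scaling, filterByExpr with a minimum count of 10, quasi-likelihood test, aged against young, no covariate). The study used DESeq and an FPKM filter, neither of which was applied here. The standard error was the log2 fold change divided by the square root of F, and log2 CPM used a prior count of 2. The floor of 3 counts corresponds to 0.151 to 0.202 CPM and covers counting error only. Alternatives were other scalings, other filters, DESeq2 1.42.0, limma-voom (limma 3.58.1), robust fitting, the replicate number as a block, and each mouse left out in turn. The test was checked on simulated counts with known fold changes. Exon lengths and positions came from the GENCODE annotation of mm9, and copies were sought with BLAST 2.17.0 over at least 100 nt. Promoter sequences came from RefSeq.

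The genes and lists were chosen with earlier results of these data known. Named are all 10 genes and, of each pathway list, the genes with an adjusted p below 0.05, or otherwise the 2 with the smallest p; for likeness, the 3 genes that correlate best with each of the 10 genes whose adjusted p is below 0.05. The text marks genes outside the rule, except that Csf1r, Slc22a6, Slc5a12, Slc4a4, Slc22a7, Slc5a1, Slco1a1, Calb1, Slc12a3, Col1a1, Dcn, Gadl1, Mat1a and Slc7a11 were also named after their values were seen.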

Additional observations from a re-analysis of the deposited data

How the results depend on the processing

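The number of the 10 genes called was 1 in the main test, and 2 with DESeq2, limma-voom with quality weights or scaling to library size alone; leaving out 1 mouse gave 0 to 2. Over all genes the number called was 287, against 488 with library size alone, 873 with DESeq2, 483 with limma-voom and 130 with the replicate block, and between 8 (without young mouse 1) and 733 (without aged mouse 4) with 1 mouse left out. Of the called genes 56.8% were higher in aged mice, 75.4% with library size alone, 49.3% with limma-voom and 44.9% without aged mouse 4. Of the other pathway genes 2 were called, against 11 with DESeq2 and 8 with limma-voom, and between 0 and 15 (without aged mouse 4) with 1 mouse left out. Of 170 values of the 10 genes under alternatives, 145 kept direction and side of the threshold, 6 lost the call (Csad), 4 gained it (Mat2a) and 15 changed sign, all in genes not called. The log2 fold change of Sqrdl, -0.0033 in the main test, was 0.036 with upper-quartile scaling, 0.11 with library size alone, 0.0017 with at least 10 counts in every library and 0.048 with limma-voom, and lay between -0.063 and 0.072 with 1 mouse left out. That of Ethe1 was -0.029 with the replicate block and between -0.20 and 0.16 with 1 mouse left out. With library size alone Suox stood at 0.070 and Ahcy at 0.0077, and Cdo1 lay between -0.56 and 0.061 with 1 mouse left out. The causes were not tested. Whether mice with the same replicate number were handled together is not given by the labels. The correlation of their deviations lay between -0.03 and 0.21, and 5 of 8 mice correlated best with their own number. With the replicate block 1 of the 10 genes was still called, Csad, with a log2 fold change of -1.51. The floor of 3 counts lay far below all 10 genes, so depth did not limit them.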
